A study of Mus musculus with 4 samples.

Results

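Tgfb1 and 6 genes for secreted matrix regulators or matrix synthesis were followed on 4 Affymetrix arrays of mouse embryonic stem cells. The genes are Tgfb1, Ccn2, Igfbp3, Fn1, Dcn, Has2 and Mmp9, which is 7 of the 8251 genes that the platform annotation pairs with probe sets of a single symbol. All 9 probe sets that the annotation assigns to exactly 1 of these symbols were used, and no further probe set carried 1 of them beside another symbol. By the RefSeq table of GRCm38.p6, Tgfb1 lies on chromosome 7, Ccn2 and Dcn on chromosome 10, Igfbp3 on chromosome 11, Fn1 on chromosome 1, Has2 on chromosome 15 and Mmp9 on chromosome 2. The genes were picked with the differences between these same arrays in view, so their values are given as a description and without a test.

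The cells were E14tg2a, a line of mouse embryonic stem cells that is grown without a feeder layer. The 4 groups were cells with constitutively active Akt after 4 days without LIF (called Akt12 cells without LIF), the same cells in 3000 U/ml LIF (Akt12 cells with LIF), control cells after 4 days without LIF, and control cells kept in 3000 U/ml LIF. LIF, leukemia inhibitory factor, is the cytokine that holds mouse embryonic stem cells in the undifferentiated state, and Akt is a kinase downstream of phosphoinositide 3-kinase. Each group is 1 array, so no value has a replicate check. Whether the Akt12 cells are 1 clone, what drives the Akt transgene and whether the control cells carry a vector is not stated in the labels, so a difference between clones and an effect of Akt cannot be told apart.

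TGF-beta 1 is secreted in a latent complex, is released outside the cell, and acts through type II and type I receptors that phosphorylate Smad2 and Smad3. It is known for inducing genes of the extracellular matrix. CCN2, also called connective tissue growth factor, is a matrix-associated protein and a target of TGF-beta, and IGFBP3 holds insulin-like growth factors in the extracellular fluid. Fibronectin (Fn1) and the small proteoglycan decorin (Dcn) are matrix components, HAS2 is the membrane enzyme that makes hyaluronan, and MMP9 is a secreted protease that cuts denatured collagen and type IV collagen.

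Start regions are shown for Tgfb1 and Igfbp3 only. The RefSeq promoter table, build GRCm38.p6, matched just these 2 of the 7 genes. It gives 250 bases before and 50 after the start, at chr7:25686752-25687051 on the plus strand for Tgfb1 and at chr11:7213874-7214173 on the minus strand for Igfbp3. Each is written along its gene's strand. Capitals mark GGGCGG, the GC box that SP1 binds, on either strand (CCGCCC where it lies on the opposite strand), and TATATA.
Tgfb1: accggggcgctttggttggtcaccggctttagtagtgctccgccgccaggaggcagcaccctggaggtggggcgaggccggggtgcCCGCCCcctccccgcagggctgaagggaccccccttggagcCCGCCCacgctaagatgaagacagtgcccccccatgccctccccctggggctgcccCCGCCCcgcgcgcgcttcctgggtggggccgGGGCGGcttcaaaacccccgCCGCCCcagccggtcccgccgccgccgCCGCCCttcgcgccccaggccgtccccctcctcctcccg
Igfbp3: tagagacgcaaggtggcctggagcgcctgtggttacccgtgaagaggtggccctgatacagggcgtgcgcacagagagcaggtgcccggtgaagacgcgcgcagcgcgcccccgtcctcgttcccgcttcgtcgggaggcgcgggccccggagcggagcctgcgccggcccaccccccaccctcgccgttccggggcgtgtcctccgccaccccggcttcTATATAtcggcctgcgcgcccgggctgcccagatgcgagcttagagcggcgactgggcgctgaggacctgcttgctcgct

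The 2 windows had different letters. That of Tgfb1 held 6 GGGCGG matches, 5 of them on the opposite strand, and had a GC content of 77%. The match nearest before the start on the gene's own strand lay from base -36 to base -31. That of Igfbp3 held no GGGCGG and 1 TATATA, from base -30 to base -25, in a window with 71.7% GC. The median over 32851 promoters was 52.7% GC, and 35.7% of them held GGGCGG and 5.67% TATATA. The search for TATATA was added after the sequences had been read. On both strands, neither window held TGANTCA (AP-1, in 7.81% of promoters), GGAATG (TEAD, 14.7%), CAGAC (SMAD, 49.6%), TTCNNNGAA (STAT, 8.3%) or TATAAA (13.6%). No 2 of the matches overlap.

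The values below are intensities after quantile normalisation, which gives every array the same distribution. A floor was set at 15.8, the 40th percentile of all values. The highest deposited intensity among the 19 probe sets for transcripts that mouse cells lack was 14.9, so a value near or under the floor cannot be told from no signal. A log2 difference of at least 1 in size, which is 2-fold, is called higher or lower, and a fold against an array at the floor is a lower limit, given as at least that many fold. The arrays had between 5625 and 5659 genes above the floor. All 8 stem cell markers of the list used here were above the floor on every array. After LIF withdrawal 3 of the 8 were called lower in Akt12 cells, where 3.65% of all genes were. In control cells 6 of the 8 were, where 6.4% of all genes were, and none was called higher in either line. The summed intensity of the 8, in which bright genes weigh most, was 4565 in Akt12 cells without LIF and 7544 in Akt12 cells with LIF. It was 1823 in control cells without LIF and 6849 in control cells with LIF. The signal of the 3' actin probe set over that of the 5' one, which rises as RNA is degraded, was 2.48, 3.04, 1.66 and 2.33 in the same order. The same ratio for Gapdh was 2.46, 3.05, 3.19 and 3.03. On the array of control cells without LIF, on which 5 of the 7 genes were highest, the actin ratio was thus the lowest of the 4 and the Gapdh ratio the highest, and the part of RNA quality in the results was not tested. Nor can fewer cells of a type be told apart from less RNA per cell in such cultures.

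Tgfb1, the ligand, stood high on a single array. Its intensity was 9.9 in Akt12 cells without LIF and 4.2 in Akt12 cells with LIF, against 329.3 in control cells without LIF and 16 in control cells with LIF. The first 2 values are under the floor and the last is just above it, so only control cells without LIF had a signal clear of the background.

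In control cells Tgfb1 was 20.6-fold higher without LIF than with it (log2 difference 4.36), the highest difference of the 5984 genes that passed the floor on either array. That rank belongs to this floor, at which the values of genes under it on 1 array are lower limits. With the floor at the 20th percentile, Mmp9 had a log2 difference of 4.44 and Tgfb1 4.36. As deposited, before any scaling, the values were 327.7 without LIF and 19.0 with LIF, a ratio of 17.2. Because the value with LIF lies at the edge of the background, the fold follows the floor. With a floor at the 60th percentile, an intensity of 47.8, the log2 difference was at least 2.78. Without LIF, Tgfb1 was at least 20.9-fold lower in Akt12 cells than in control cells. Within Akt12 cells both arrays were under the floor, so no response to LIF withdrawal could be measured.

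**Figure D1:**
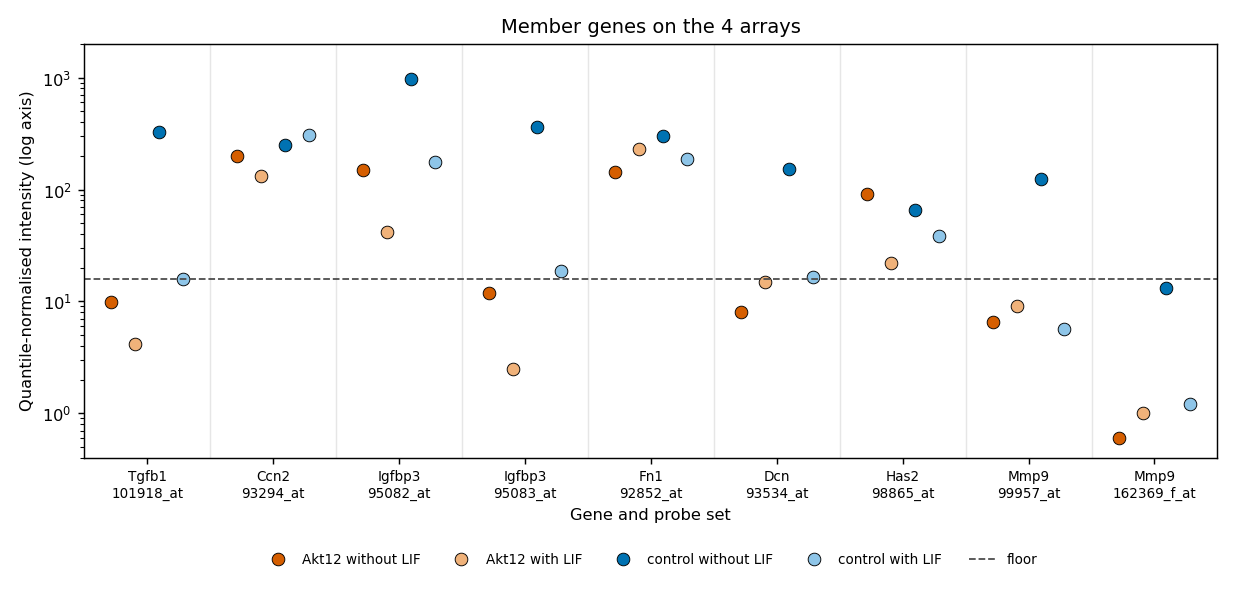
Quantile-normalised intensity (log axis) of the 9 probe sets of the 7 genes, with 1 point for each array and no error bars, since each group is 1 array. The dashed line is the floor of 15.8. Control cells without LIF are highest for both probe sets of Igfbp3 and for Tgfb1, Dcn, Fn1 and Mmp9, while Ccn2 is highest in control cells with LIF and Has2 in Akt12 cells without LIF.

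Other genes of TGF-beta signalling came from lists chosen by function. Of 11 genes for ligands and their release, leaving out Tgfb1, 9 were above the floor in control cells and 3 were called higher after LIF withdrawal. None was lower, and the median log2 difference was 0.11, against -0.03 for all genes. The 3 were the second ligand gene Tgfb2, the integrin subunit gene Itgav and the protease gene Furin. Tgfb2 had an intensity of 89.1 in control cells without LIF and 17.4 in control cells with LIF, which is 5.11-fold higher. Its value with LIF lies just above the floor, so the fold follows the floor, as for Tgfb1. In both Akt12 cultures Tgfb2 was under the floor, at 9.2 without LIF and 8.8 with LIF.

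Furin encodes the convertase that cuts the TGF-beta precursor, and was 2.63-fold higher after LIF withdrawal in control cells, at 249.7 without LIF against 94.8 with LIF. Itgav, a subunit of integrins that bind latent TGF-beta, was 2.8-fold higher, but its other probe set above the floor gave a log2 difference of 0.30. In Akt12 cells none of the 8 genes of this list above the floor was called, with a median of 0.20. Of these, Plg was under the floor with LIF and Fbn2 without LIF, so their differences are lower limits. Tgfb3 stayed between 20.3 and 26.4 on the 4 arrays. Plg, Fbn2 and Tgfb3 were named after their values were seen.

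The receptor and Smad genes were close to even. Of 14 on the array, 11 were above the floor in each line. In control cells none was called and the median was 0.17, a sign that turned to -0.14 on the values as deposited. In Akt12 cells only Skil, which encodes a repressor of Smad activity, was called, at least 2.16-fold higher without LIF, and the median was 0.09, or -0.12 when the arrays were scaled to their hybridization controls. The genes named next were chosen after their values were seen. The receptor genes Tgfbr1 and Tgfbr2 and the Smad gene Smad3 were under the floor on all 4 arrays, with 6.0 as their highest value. Smad2 and Smad4 were above it on all 4, Smad4 at 546.5 and 481.5 in Akt12 cells without and with LIF, and at 755.6 and 565.7 in control cells without and with LIF.

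Ccn2, a target gene of TGF-beta, did not follow Tgfb1. Its intensity was 198.0 in Akt12 cells without LIF and 132.7 in Akt12 cells with LIF, against 251.9 in control cells without LIF and 306.9 in control cells with LIF. It was highest where Tgfb1 was at the edge of the background. Its log2 difference after LIF withdrawal was 0.58 in Akt12 cells and -0.28 in control cells, both under 2-fold. With LIF it was 2.31-fold lower in Akt12 than in control cells, and without LIF the log2 difference between the lines was -0.35.

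As an error for such differences, the spread between probe sets of the same gene was used, an SD of 0.351 to 0.411 in log2 over the 4 comparisons. It covers disagreement between probe sets and not the variation between cultures. By that measure the values of Ccn2 in Akt12 cells without LIF and in both control cultures lay 0.28 and 0.35 from the next in order of level, inside the spread. Akt12 cells with LIF were lowest, 0.58 below the next array.

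Among the other TGF-beta target genes, 7 of 20 above the floor were called higher after LIF withdrawal in control cells and none was lower, and the median was 0.53. The smooth muscle genes Tagln (4.83-fold) and Acta2 (4.29-fold), the collagen gene Col3a1 (at least 4.54-fold) and the CCN family gene Ccn1 (3.57-fold) differed most. In Akt12 cells 4 of 18 were higher without LIF and none lower. The median was 0.11, or -0.04 when scaled to the hybridization controls, and the 4 were Acta2 (at least 4.38-fold), Tagln (3.93-fold), Id1 (2.17-fold) and Skil.

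Between the lines, Tagln had an intensity of 79.5 in Akt12 cells without LIF and 20.2 in Akt12 cells with LIF, against 1318.5 in control cells without LIF and 272.9 in control cells with LIF. It was thus higher without LIF in both lines and lower in Akt12 cells on either medium, by 16.6-fold without LIF and 13.5-fold with LIF. Without LIF, 9 of the 20 target genes above the floor were lower in Akt12 than in control cells and 1 was higher, where 8.12% of all genes were lower and 5.87% higher. With LIF the counts were 5 lower and 1 higher of 18, where 3.64% of all genes were lower and 3.5% higher. The list was not split by whether TGF-beta raises or lowers a gene, so these counts are no measure of TGF-beta signalling. Of the remaining CCN family genes, 2 of 3 above the floor were higher after LIF withdrawal in control cells, Ccn4 (3.99-fold) and Ccn1. In Akt12 cells none of 3 was called after LIF withdrawal. All 3 were under the floor in Akt12 cells with LIF, so these differences are lower limits. With the floor at the 20th percentile all 3 were called higher.

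Of the 7 genes, only Igfbp3 was called higher after LIF withdrawal in both lines. Its brighter probe set had 148.8 in Akt12 cells without LIF and 41.3 in Akt12 cells with LIF, against 979.0 in control cells without LIF and 177.1 in control cells with LIF. Each culture without LIF was above its partner with LIF, and each control culture above the Akt12 culture on the same medium. The difference after LIF withdrawal was 3.6-fold in Akt12 cells (log2 1.85) and 5.53-fold in control cells (log2 2.47). Akt12 cells were lower than control cells by 6.58-fold without LIF and by 4.29-fold with LIF. The values of control cells with LIF and Akt12 cells without LIF lay 0.25 apart in log2, within the spread between probe sets.

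The second probe set of Igfbp3 was dimmer and showed a steeper difference in control cells. It had 11.8 in Akt12 cells without LIF and 2.5 in Akt12 cells with LIF, against 365.2 in control cells without LIF and 18.8 in control cells with LIF. Within the control line it was 19.5-fold higher without LIF, where the other probe set gave 5.53-fold, so the size of the difference is uncertain and the direction is shared. In Akt12 cells both of its values were under the floor, so the Akt12 response rests on 1 probe set. Between the lines without LIF it was also lower in Akt12 cells, by at least 23.1-fold. With LIF it was at least 1.19-fold lower. The control value of 18.8 lay so near the floor that no 2-fold difference could have been seen. The lower call with LIF thus rests on 1 probe set too.

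Among 6 other genes for IGF binding proteins and their partner, 3 were above the floor in control cells. Igfbp2 was 5.29-fold higher without LIF, at 1471.0 without LIF against 277.9 with LIF, and Igfbp7 at least 2.13-fold higher, while on the values as deposited 1 of the list was higher. In Akt12 cells none of 3 was called after LIF withdrawal. Igfbp7 was there under the floor with LIF, so its difference is a lower limit. Igfbp2 had 385.4 in Akt12 cells without LIF and 305.3 in Akt12 cells with LIF. Without LIF it was 3.82-fold lower in Akt12 than in control cells, and Igfbp4 was 2.02-fold lower, while its other probe set gave -0.78 in log2.

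Fn1, which encodes fibronectin, had opposite differences in the lines. Its intensity was 143.0 in Akt12 cells without LIF and 230.6 in Akt12 cells with LIF, against 300.3 in control cells without LIF and 188.4 in control cells with LIF. After LIF withdrawal the log2 difference was -0.69 in Akt12 cells and 0.67 in control cells, neither reaching 2-fold. Ordered by level, each array lay 0.29 to 0.40 from the next, within the spread between probe sets. Only the ends of that order, Akt12 and control cells without LIF, were 2-fold apart, with Akt12 cells 2.1-fold lower.

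Genes for fibronectin receptors and partners were higher in 3 of 9 cases in control cells without LIF. They were the syndecan gene Sdc2 (3.08-fold), Itgav and Itgb1 (2.08-fold), which encodes the beta 1 integrin subunit. Sdc2 was also the only 1 of 9 called in Akt12 cells, 2.24-fold higher without LIF. Medians were 0.34 in both lines, and no gene of this list was lower after LIF withdrawal in either.

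Dcn, like Tgfb1, stood high on a single array. Its intensity was 8.1 in Akt12 cells without LIF and 14.9 in Akt12 cells with LIF, against 152.8 in control cells without LIF and 16.6 in control cells with LIF. Only control cells without LIF were clear of the background. There it was 9.2-fold higher than in control cells with LIF, and Akt12 cells without LIF were at least 9.68-fold lower than control cells without LIF. Raising the floor to the 60th percentile made the first of these a log2 difference of at least 1.68. Of 7 other genes for small leucine-rich proteoglycans, 2 were above the floor in control cells, and neither was called (median 0.49). Only 1 was above it in Akt12 cells, at 0.38.

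Of the 7 genes, only Has2 was highest in Akt12 cells without LIF. Its intensity was 91.0 in Akt12 cells without LIF and 22.1 in Akt12 cells with LIF, against 66.1 in control cells without LIF and 38.7 in control cells with LIF. Both cultures without LIF lay above both cultures with LIF, and neighbours in the order lay 0.46 to 0.80 apart in log2, each beyond the spread between probe sets. The difference was 4.11-fold in Akt12 cells (log2 2.04), and 9 of 5945 genes had a higher one. The Akt12 value with LIF lies near the floor, so the size and rank of this difference follow the floor. With the floor at the 60th percentile it was at least 0.93 in log2, which is no call. With log2(value + 16) and no floor it was 1.49. In control cells the log2 difference was 0.77. In log2, Akt12 minus control cells was 0.46 without LIF and -0.80 with LIF, so Akt12 cells were on opposite sides of control cells on the 2 media. On the values as deposited these were 0.11 and -1.35. There the difference without LIF lay within the spread between probe sets.

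Of 12 other genes for hyaluronan synthesis, breakdown and binding, 5 were above the floor in Akt12 cells, and 2 were higher without LIF. They were the hyaluronidase gene Hyal2 (2.57-fold) and the versican gene Vcan (2.48-fold), whose protein binds hyaluronan. Vcan had 89.1 in Akt12 cells without LIF and 35.9 in Akt12 cells with LIF, against 42.2 in control cells without LIF and 63.5 in control cells with LIF. Within the control line none of 4 was called after LIF withdrawal, with medians of 0.29 in Akt12 and -0.13 in control cells, the last of which was 0.34 with the floor at the 60th percentile. The synthase gene Has1 was under the floor on all 4 arrays, and the receptor gene Cd44 was at 1.6 or less on each. Those genes were named after their values were seen.

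Mmp9 was above the floor on 1 array. Its intensity was 6.6 in Akt12 cells without LIF and 9.1 in Akt12 cells with LIF, against 123.8 in control cells without LIF and 5.7 in control cells with LIF. The control culture without LIF was at least 7.85-fold higher than that with LIF, and Akt12 cells without LIF were at least 7.85-fold lower than control cells without LIF. The second probe set, whose suffix _f_at marks probes shared within a family of similar sequences, was under the floor on all 4 arrays, with its highest value of 13.3 also in control cells without LIF.

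Among 20 other matrix protease genes, 10 were above the floor in control cells, of which 2 were higher without LIF and 2 lower. The urokinase receptor gene Plaur (2.9-fold) and Mmp14 (2.74-fold), which encodes a membrane-bound matrix metalloproteinase, were higher. Mmp11 (2.23-fold) and the serine protease gene Htra1 (2.22-fold) were lower. In Akt12 cells Htra1 was the only 1 of 11 called, 2.57-fold lower without LIF. Medians were 0.14 in Akt12 and 0.03 in control cells, or -0.01 and -0.09 in the same order when scaled to the hybridization controls.

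Genes for protease inhibitors were next compared. Of 7 above the floor in control cells, 4 were higher without LIF and none lower, while on the values as deposited 2 were higher. The median was 1.18, and the 4 were Timp3 (3.8-fold), an inhibitor of matrix metalloproteinases, the collagen chaperone gene Serpinh1 (3.45-fold), Reck (2.36-fold), a membrane-anchored inhibitor of matrix metalloproteinases, and the cystatin gene Cst3 (2.26-fold). In Akt12 cells 1 of 6 was higher, Timp3 (2.19-fold), and 1 lower, Reck (2.35-fold), with a median of 0.02, or -0.20 when scaled to the hybridization controls. Serpinh1 is grouped here by its protein family and is not known as a protease inhibitor.

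**Figure D2:**
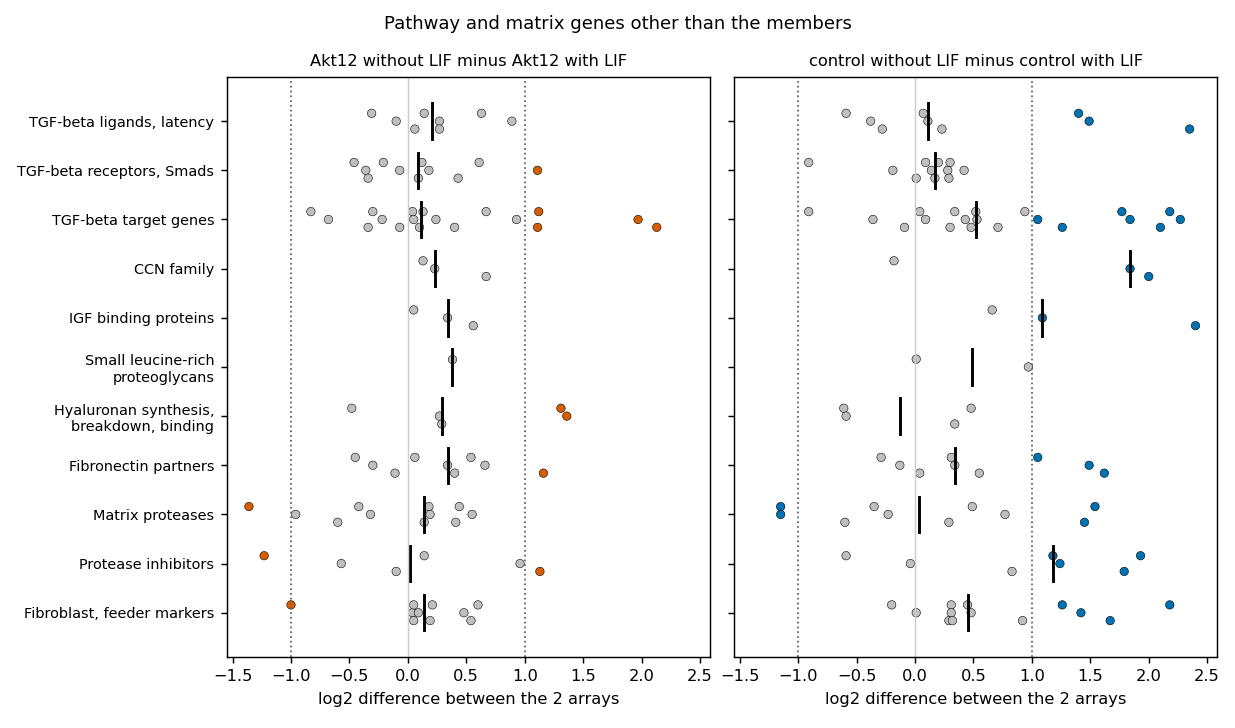
Log2 differences between 2 arrays after LIF withdrawal for genes of 11 lists, with the 7 genes left out, in Akt12 cells (left) and control cells (right). Each point is a gene that passed the floor on either array, coloured where it is at least 2-fold different, and black bars are medians. CCN family genes, IGF binding proteins and protease inhibitors have medians of 1.84, 1.09 and 1.18 in control cells, and 0.23, 0.34 and 0.02 in Akt12 cells. The CCN family genes were all under the floor in Akt12 cells with LIF, so their median of 0.23 is a lower limit.

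Counted together, 2 of the 4 genes above the floor were called higher after LIF withdrawal in Akt12 cells (Has2 and Igfbp3), where 3.01% of all genes were higher, and none lower, where 3.65% were. The other 3, Tgfb1, Dcn and Mmp9, were under the floor on both arrays. In control cells 4 of 7 were called higher (Tgfb1, Dcn, Igfbp3 and Mmp9), where 7.39% of all genes were, and none lower, where 6.4% were. The 7 genes were chosen from these differences, so nothing is read from the gap to the background. In the lists above and below, genes higher after LIF withdrawal can be set against the same 7.39% in control cells and 3.01% in Akt12 cells. Those lower can be set against 6.4% in control cells and 3.65% in Akt12 cells.

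Between the lines without LIF, 5 of 7 were lower in Akt12 than in control cells (Tgfb1, Dcn, Mmp9, Igfbp3 and Fn1), where 8.12% of all genes were lower, and none higher, where 5.87% were. With LIF, 2 of the 6 above the floor were lower in Akt12 cells (Igfbp3 and Ccn2), where 3.64% of all genes were, and none higher, where 3.5% were. Tgfb1 and Dcn were there just above the floor in control cells and under it in Akt12 cells, so a difference could not have been seen. The 4 comparisons share arrays with each other, and control cells without LIF enter both comparisons in which Tgfb1, Dcn and Mmp9 differ.

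**Figure D3:**
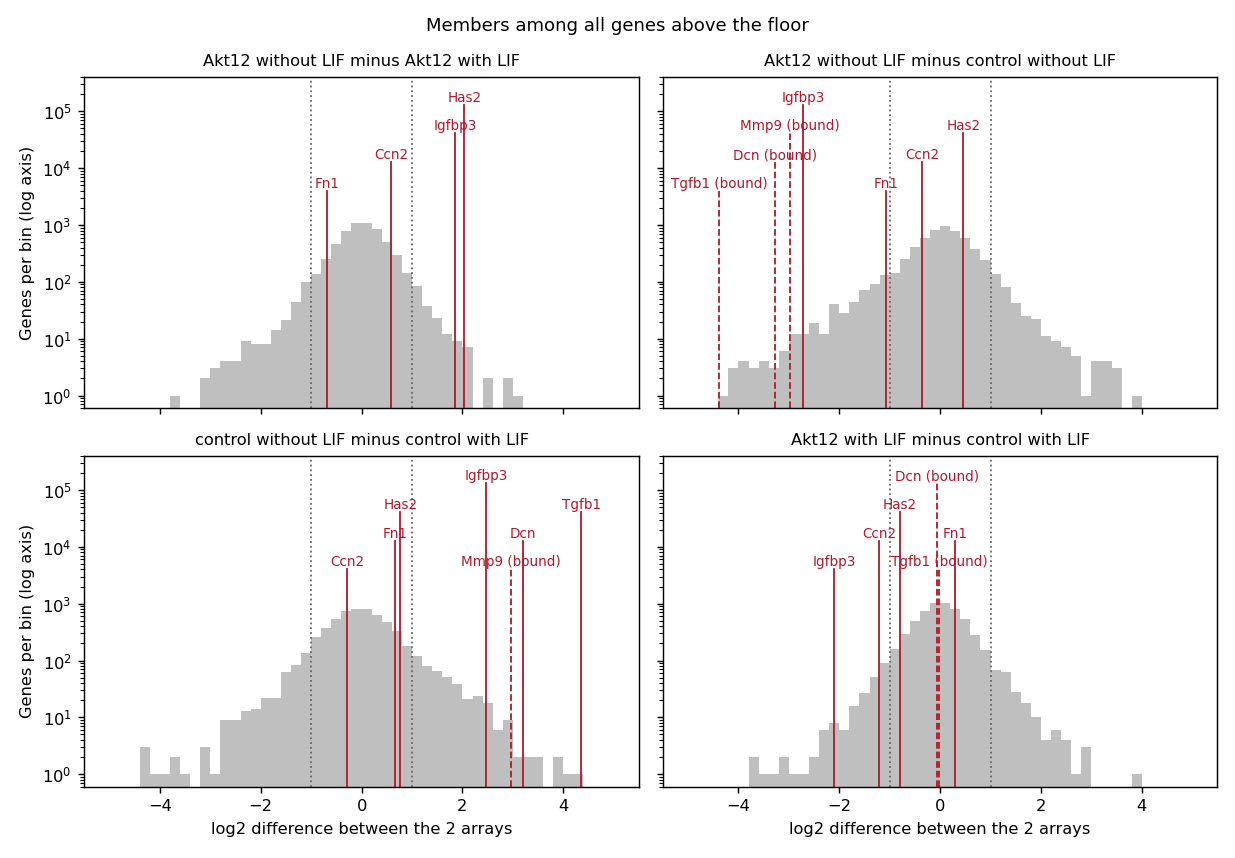
Log2 differences of the 7 genes (red lines, dashed where 1 array is at the floor and the value is a bound) over the histogram of all genes that passed the floor on either array (grey, log axis), for LIF withdrawal (left column) and for Akt12 against control cells (right column). Dotted lines mark 2-fold. Tgfb1 lies at 4.36 in control cells after LIF withdrawal and at -4.38 between the lines without LIF.

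The responses of the lines could be set side by side for the 4 genes measured in both. The response in Akt12 cells minus that in control cells was 1.26 for Has2, 0.86 for Ccn2, -0.62 for Igfbp3 and -1.36 for Fn1 in log2. With 4 arrays this difference has no error of its own and was not tested. Over the other processing settings it was -0.28 to -2.45 for Igfbp3 and 0.46 to 1.46 for Has2, the lowest with the floor at the 60th percentile, so both sizes are poorly fixed. For Ccn2 it was 0.79 to 1.17 and for Fn1 -1.05 to -1.43.

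The profile of Tgfb1 over the 4 arrays was set beside that of 6257 other genes that passed the floor on 1 or more arrays. The measure was the root mean square difference of log2 values, each centred on the gene's own mean, over 4 arrays. The 5 with the smallest values were Tmprss2 (0.08), Wnt4 (0.24), Wnt6 (0.31), Wls (0.36) and Dcn (0.49). Values under the floor are set to it, so genes that stand above it in control cells without LIF alone, such as Tmprss2 and Wnt4, come out close to Tgfb1 by construction, and the measure is no evidence of likeness where there is no signal. Of the 5, only Wls, which encodes the carrier that brings Wnt proteins to the cell surface, was above the floor on all 4 arrays. It had 34.1 in Akt12 cells without LIF and 29.1 in Akt12 cells with LIF, against 517.4 in control cells without LIF and 49.7 in control cells with LIF.

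Markers of other cells moved in part with the same array. Of 16 fibroblast and feeder markers, all on the array, 13 were above the floor in control cells without LIF, where 8 to 10 were on the other arrays. Their summed intensity was 593 in Akt12 cells without LIF and 557 in Akt12 cells with LIF, against 962 in control cells without LIF and 480 in control cells with LIF. Within the control line 4 of 13 were called higher after withdrawal, where 7.39% of all genes were, and none lower, where 6.4% were. The median was 0.45. The 4 were Col3a1, Twist1 (3.19-fold), Col5a1 (2.67-fold) and Col1a1 (2.39-fold). Of the list, Pdgfrb, Postn and Fap were under the floor on all 4 arrays, while Col1a2, Col6a1 and Thy1 were above it on all 4. The receptor gene Pdgfra had 37.1 in Akt12 cells without LIF and 74.4 in Akt12 cells with LIF, against 21.6 in control cells without LIF and 9.2 in control cells with LIF. It was the only 1 of 10 called after LIF withdrawal in Akt12 cells, 2-fold lower, and with LIF at least 4.72-fold higher in Akt12 than in control cells. Its other probe set gave log2 differences of -0.42 and 0.68 for these comparisons. Fibroblast genes other than those called were named after their values were seen. The part of such cells in the values of Tgfb1, Dcn and Mmp9 was not tested. The list shares collagen genes with that of TGF-beta targets.

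Macrophages, which express Tgfb1 and Mmp9, were followed by 8 markers. Of these, 3 or 4 were above the floor on each array, and their summed intensity was 174 in Akt12 cells without LIF and 265 in Akt12 cells with LIF, against 159 in control cells without LIF and 144 in control cells with LIF. Ptprc, Lyz2, Adgre1 and Itgam were under the floor on all 4 arrays. Cd68 had 57.1 in Akt12 cells without LIF and 110.4 in Akt12 cells with LIF, against 30.1 in control cells without LIF and 34.5 in control cells with LIF, which made it 3.2-fold higher in Akt12 cells with LIF than in control cells with LIF. The part of macrophages in the values of Tgfb1 and Mmp9 was not tested. None of the 4 above the floor was called after LIF withdrawal in either line. Medians were -0.52 in Akt12 and 0.02 in control cells, the last of which was -0.21 on the values as deposited.

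**Figure D4:**
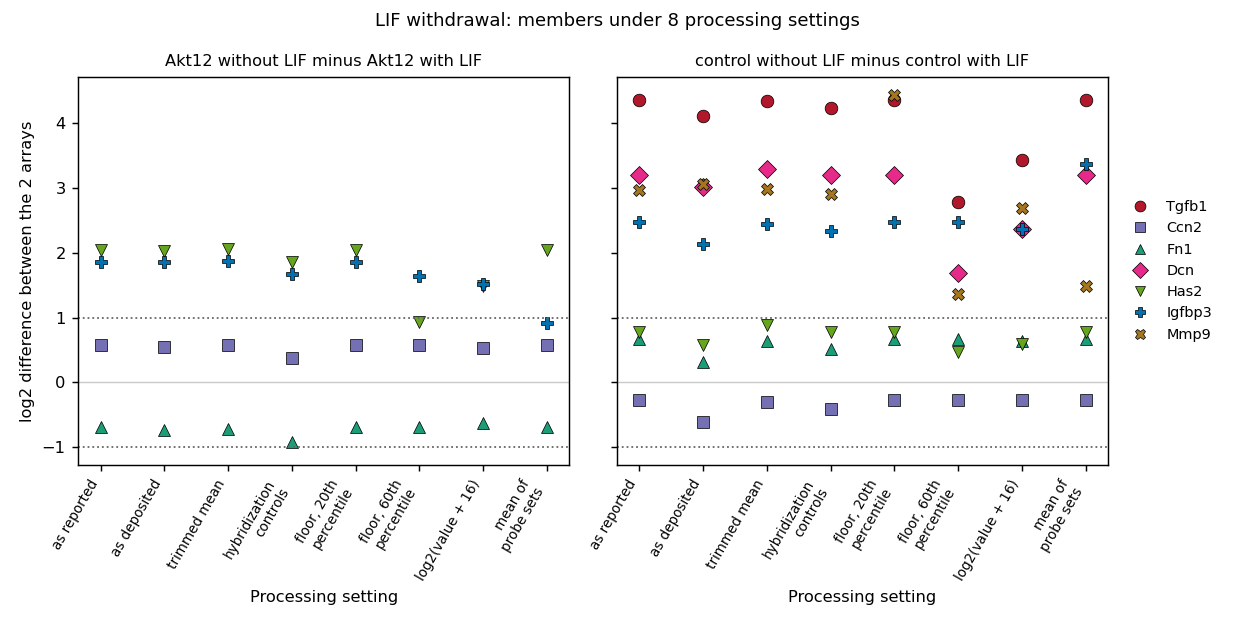
Log2 difference after LIF withdrawal of each of the 7 genes under 8 processing settings, in Akt12 cells (left) and control cells (right). Dotted lines mark 2-fold. Genes under the reported floor of 15.8 on both arrays have no point in any setting, also where the floor is lower or absent. Tgfb1 in control cells lies between 2.78 and 4.36, and Has2 and Igfbp3 in Akt12 cells each fall under 2-fold in 1 setting, at 0.93 and 0.92.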

How the data were processed

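Total RNA of 4 cultures was measured on 1 Affymetrix array each. The deposited table holds 1 intensity per probe set and array, not on a log scale. The software behind it and how it was scaled are not given in the labels. Of 12488 probe sets, 66 array controls were left out. The 2% trimmed means of the arrays ran from 80.3 to 121, a ratio of 1.51, so the intensities were quantile normalised, values under the 40th percentile (15.8) were set to it, and log2 was taken (Python 3.11.15, numpy 2.4.6). Platform annotation gave 1 symbol to 10833 probe sets, 10817 of them with a gene identifier in a RefSeq table of GRCm38.p6, from which symbols were updated. A gene was represented by the probe set whose log2 values had the highest mean.

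With 1 array per group no test was run, and the number of arrays limits the precision. The genes and lists were chosen with earlier results of these data known. From each list, genes at least 2-fold different were named, at most 4 per comparison. Alternatives were 3 other scalings, 2 other floors, log2(value + 16) without a floor, and the mean of a gene's probe sets.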

Additional observations from a re-analysis of the deposited data

Results flagged for a closer look

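In 4 results on the genes under study, the single arrays of the groups moved in opposite directions. None of these differences was tested, since 4 arrays leave no error for it. Fn1 had a log2 difference after LIF withdrawal of -0.69 in Akt12 cells and 0.67 in control cells, and a difference between the lines of -1.07 without LIF and 0.29 with LIF, the last of which was -0.28 on the values as deposited. Ccn2 had 0.58 in Akt12 cells and -0.28 in control cells after LIF withdrawal. For Has2, Akt12 minus control cells gave 0.46 without LIF and -0.80 with LIF, or 0.11 and -1.35 on the values as deposited. Among the list genes 2-fold different after LIF withdrawal in both lines, only Reck moved in opposite directions, with -1.23 in Akt12 cells and 1.24 in control cells.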

How the results depend on the processing

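No paired analysis was possible because each group holds 1 array. No called difference of the 7 genes changed sign under the 7 alternatives. The 2-fold calls in control cells after LIF withdrawal were kept by Tgfb1, Dcn, Igfbp3 and Mmp9 under all 7, with log2 differences of 2.78 to 4.36, 1.68 to 3.29, 2.14 to 3.37 and 1.37 to 4.44. In Akt12 cells the number of the 7 genes that were higher was 2 as reported. It became 1 when the floor stood at the 60th percentile, where Has2 had 0.93, and 1 with the mean of probe sets, where Igfbp3 had 0.92. With the floor at the 20th percentile it was 3. With LIF, 2 were lower in Akt12 than in control cells as reported. This became 3 as deposited, where Has2 had -1.35, and 3 with the floor at the 20th percentile, where Tgfb1 had -1.92. That floor is 4.2, so values that cannot be told from no signal enter these counts. The lower value of Fn1 in Akt12 than control cells without LIF was -0.99 to -1.33 and kept its call in 6 of 7. With LIF, Fn1 in Akt12 minus control cells was 0.29 as reported and -0.28 as deposited.

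Counts over all genes moved most. With a floor at the 20th percentile, genes higher and lower were 480 and 490 for LIF withdrawal in Akt12 cells, 720 and 650 in control cells, 662 and 778 for Akt12 against control cells without LIF, and 476 and 526 with LIF. At the 60th percentile they were 69 and 123 in Akt12 cells, 189 and 312 between the lines without LIF, 109 and 105 with LIF, and 221 were lower in control cells. With log2(value + 16) they were 96 and 119 in Akt12 cells, 212 were higher between the lines without LIF and 127 lower with LIF. As deposited, 776 were lower in control cells after LIF withdrawal, 168 higher between the lines without LIF, and 66 higher and 1002 lower with LIF. Without scaling the median log2 difference of all genes was -0.29 in control cells, -0.53 between the lines with LIF and -0.22 without. Scaled to the hybridization controls, 112 were higher and 342 lower in Akt12 cells, which made the share of higher calls 24.7%, against 45.2% as reported, with a median of -0.17. That scaling gave medians of -0.11 in control cells and 0.13 between the lines with LIF, where 63.3% of calls were higher, against 49.1% as reported. As deposited the share of higher calls was 30.2% in control cells (53.6% as reported), 6.18% between the lines with LIF and 18.8% without (42% as reported). Counts and medians of the gene lists were recomputed under the same settings after the data were seen, and stand beside the reported ones for the lists most affected by scaling. With the floor at the 20th percentile, all 3 CCN family genes measured in Akt12 cells were higher without LIF, against none as reported. The cause of these shifts was not tested.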

Other observations

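Genes for basement membrane proteins and markers of parietal endoderm, a lineage that secretes much matrix, were also followed. Of 9 markers on the array, the summed intensity was 1408 in Akt12 cells without LIF and 1440 in Akt12 cells with LIF, against 1673 in control cells without LIF and 882 in control cells with LIF. Within the control line 4 of 7 above the floor were higher without LIF, where 7.39% of all genes were. The 4 were the endoderm transcription factor gene Gata4 (at least 3.5-fold), the collagen IV genes Col4a1 (3.12-fold) and Col4a2 (2.65-fold), and Sparc (2.01-fold). Only 1 was lower, the laminin gene Lama1 (at least 3.26-fold), where 6.4% of all genes were. In Akt12 cells none of 8 was 2-fold different after LIF withdrawal. With LIF, 4 of 8 above the floor were higher in Akt12 than in control cells, where 3.5% of all genes were. They were Gata4 (at least 3.74-fold), Lama1 (3.47-fold), Col4a2 (2.38-fold) and Col4a1 (2.37-fold). The part of parietal endoderm in the values of Tgfb1, Dcn and Mmp9 was not tested. Thbd, which encodes thrombomodulin, was under the floor on all 4 arrays.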
